A study of Mus musculus with 6 samples.

Results

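DNA methylation was measured in the regions of 22 cadherin-superfamily genes, the protocadherins and cadherins, out of 10021 gene regions with at least 3 measured cytosines. Members were chosen by name: each deposited region is keyed by a RefSeq transcript, and a region was taken when its gene symbol began with Pcdh, Celsr or Cdh followed by a digit, or was Fat1 to Fat4. They held 4 clustered protocadherins (Pcdhga9, Pcdhga12, Pcdhgc3 and Pcdhgc4, all of the gamma cluster), 6 non-clustered protocadherins, 10 Cdh genes, Celsr1 and Fat4. No region of an alpha or beta protocadherin was found in the table analysed here, and Pcdh12 and Pcdh15 were left out with 2 positions each. The 22 regions held 572 measured positions, and no position belonged to more than 1 region.

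The DNA came from quadriceps muscle of C57BL/6 mice, profiled by reduced representation bisulfite sequencing (RRBS), in which restriction-digested DNA is treated with bisulfite so that unmethylated cytosines read as T. The exercised group (3 libraries) had run on a motorized treadmill for 4 weeks, with DNA taken 3 hours after the last bout, and the sedentary group (3 libraries) served as controls of the same strain and tissue. The sources used here give neither age nor sex. They do not say whether each library is a separate animal, and p-values then measure only the spread between libraries, which may be technical. Total coverage ran from 9153526 calls (sedentary 3) to 18656340 (sedentary 2), and median coverage at the members' positions from 28.5 to 64 reads. Muscle tissue mixes cell types, so a shift in the share of a cell type and a shift in methylation within cells cannot be told apart. Methylation near a gene is not its expression, so the tissue label was not checked against muscle markers.

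Cadherins are calcium-dependent adhesion proteins whose extracellular repeats bind the same protein on a neighbouring cell. Classical cadherins hold adherens junctions together through catenins, and the giant cadherins of the Celsr and Fat families act in planar cell polarity. The alpha, beta and gamma protocadherins lie in tandem arrays on mouse chromosome 18, where each variable exon has its own promoter. In neurons the A- and B-type promoters are chosen at random in each cell, with CTCF binding at unmethylated promoters, whereas the C-type isoforms at the end of the array are expressed without that random choice. Methylation of the promoter goes with silence of the exon.

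The sequences of 4 member promoters are shown first because they show which measured CpGs had high values there. They cover 4 of the 22 members and no clustered protocadherin. The deposited regions are 3000 bp long, and their place relative to the gene was found by matching the spacing of measured positions to the CpGs of RefSeq promoter windows (GRCm38.p6), by letters and not by coordinates. Of 2083 regions that matched at exactly 1 place with at least 10 positions, 1344 (64.5%) put the annotated start exactly 2000 bp into the region in the direction of the gene, and the next most frequent place held 12. On that placement, windows with all of at least 3 measured positions on a CpG were available for Cdh22 (19 positions), Cdh24 (20), Pcdh9 (6) and Pcdh19 (5). Where a gene had several windows, the first that fitted was taken. For Pcdh9 another RefSeq window had 0 of 6 positions on a CpG, so its window was picked by its fit. The 250 bases before the start are printed 5′ to 3′ on the gene's strand, which is the minus strand for all 4, and capitals mark CCGG, the sequence cut by MspI, the enzyme usually used in RRBS (the sources used here do not name the enzyme). Their places are chr2:165234738-165234987 for Cdh22, chr14:54641365-54641614 for Cdh24, chr14:93890670-93890919 for Pcdh9 and chrX:133688994-133689243 for Pcdh19.

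Cdh22: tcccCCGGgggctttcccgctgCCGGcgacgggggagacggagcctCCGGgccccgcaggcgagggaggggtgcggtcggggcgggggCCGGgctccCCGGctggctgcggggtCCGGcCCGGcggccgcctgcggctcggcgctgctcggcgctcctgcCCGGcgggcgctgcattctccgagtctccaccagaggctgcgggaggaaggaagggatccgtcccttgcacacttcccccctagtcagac

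Cdh24: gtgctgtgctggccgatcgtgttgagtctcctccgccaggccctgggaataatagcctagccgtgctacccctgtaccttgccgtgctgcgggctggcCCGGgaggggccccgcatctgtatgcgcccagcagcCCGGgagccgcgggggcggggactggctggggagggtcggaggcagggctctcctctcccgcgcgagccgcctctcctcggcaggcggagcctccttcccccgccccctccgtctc

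Pcdh9: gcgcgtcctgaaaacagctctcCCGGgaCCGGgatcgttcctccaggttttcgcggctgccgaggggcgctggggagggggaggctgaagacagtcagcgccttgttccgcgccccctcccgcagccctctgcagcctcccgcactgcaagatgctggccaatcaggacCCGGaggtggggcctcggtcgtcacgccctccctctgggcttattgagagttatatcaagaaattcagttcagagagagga

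Pcdh19: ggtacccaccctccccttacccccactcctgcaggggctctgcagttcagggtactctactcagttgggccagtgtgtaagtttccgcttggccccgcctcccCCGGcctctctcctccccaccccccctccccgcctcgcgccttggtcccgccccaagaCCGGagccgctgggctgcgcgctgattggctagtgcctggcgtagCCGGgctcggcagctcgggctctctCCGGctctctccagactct

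CCGG reads the same on both strands, and at least 1 copy stood in this 250-base stretch of 15457 of the 32851 RefSeq promoter windows (47.1%). In Cdh22, a type II cadherin, the 5 measured positions inside CCGG had mean levels over the 6 libraries from 11.8% to 99.5%, and the 14 positions in other CpGs lay between 0.439% and 5.21%. At the CCGG whose CpG lies 130 and 129 bases before the Cdh22 start, the C was methylated at 7.37%, 12.5% and 8.14% in exercised libraries 1 to 3 and at 19.5%, 19.3% and 3.70% in sedentary libraries 1 to 3. The facing strand of that CpG was at 100%, 100% and 98.7% in exercised and 100%, 98.0% and 100% in sedentary libraries. The strands of this CpG thus differed in every library, while the neighbouring CpGs were nearly unmethylated on both strands.

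The other 3 promoters also had high mean levels inside CCGG and low ones elsewhere. Cdh24, another type II cadherin, had 6 positions inside CCGG at 14.7% to 100% and 14 elsewhere at 0% to 3.81%. Of these Cdh24 positions, 2 inside CCGG and 10 elsewhere lay in the 50 bases after the start, which the window holds and the printed stretch does not. Pcdh9 and Pcdh19 are non-clustered protocadherins of the nervous system, the latter on the X chromosome. Pcdh9 had 2 positions inside CCGG, at 97.1% and 14.9%, and 4 elsewhere at 0.556% to 1.48%. Pcdh19 had 1 inside at 93.7% and 4 elsewhere at mean levels of 3.19% to 4.07%. In sedentary library 3 these 4 Pcdh19 positions stood at 13.6% to 14.3%. Only 1 strand was measured in the Pcdh19 window, so its strands could not be compared. Across the 4 genes all 14 positions inside CCGG had a mean level of 10% or more and none of the 36 others had. The same held broadly for other genes: of 8756 non-member positions inside CCGG 97.0% were at 10% or more, with a median of 69.6%, against 5.09% of 25492 positions in other CpGs, with a median of 1.47%. At 3004 CCGG sites with both strands measured, members' sites included, the higher strand had a median level of 96.8% and the lower strand 21.0%. What part the position of CCGG has in these values was not tested.

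**Figure D1:**
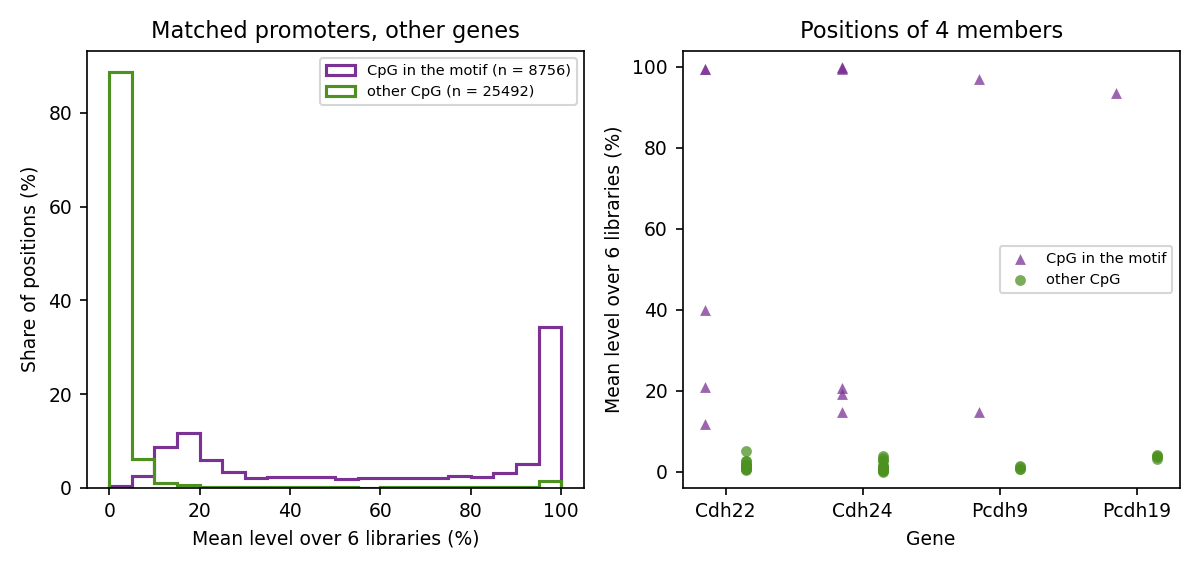
Mean methylation level over the 6 libraries (%) of promoter positions whose CpG lies inside CCGG ("the motif") or in another CpG. Left, the share of positions (%) per 5-point bin over genes that are not members (8756 and 25492 positions); right, each measured position of Cdh22, Cdh24, Pcdh9 and Pcdh19, with all 14 motif positions at 11.8% or more and all 36 others at 5.21% or less.

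Outside these windows the letters were not read, so a position at 10% or more with another position under 10% within 100 bp is called here a high position beside a low one. In the matched promoters 8290 of 9360 such positions (88.6%) were inside CCGG, against 217 of 445 (48.8%) of the positions at 10% or more with no low one nearby. Over the 22 members, 389 of 572 positions (68.0%) had a mean level under 10%, close to the 69.2% over all gene regions. Of the 183 positions at 10% or more, 165 (90.2%) stood beside a low one, and over all regions the share was 91.5%. Among 175 member CpGs with both strands measured, 32 (18.3%) had strands more than 50 points apart, and over all regions 20.1% did. In the level of a region, which is the methylated share of all its reads, high positions beside low ones therefore enter together with the rest.

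Levels were higher in the clustered members than in most non-clustered ones. The 4 gamma protocadherin regions had levels, averaged over the 6 libraries, of 80.2% (Pcdhga12), 68.0% (Pcdhga9), 38.6% (Pcdhgc4) and 35.9% (Pcdhgc3), with a median of 53.3%. The 18 non-clustered regions ranged from 13.4% (Cdh22) to 52.7% (Cdh3), with a median of 23.9%. The median over all gene regions was 22.0%, and all 4 clustered and 10 of the 18 non-clustered regions stood above it. In each library the clustered median was above the non-clustered one: 57.3%, 49.4% and 58.4% against 24.0%, 23.2% and 25.1% in exercised libraries 1 to 3, and 51.3%, 52.1% and 53.0% against 22.5%, 21.9% and 22.7% in sedentary libraries 1 to 3. No library reversed the order, but the clustered regions were also sparse, with 3 to 7 positions each against a median of 18.5. All 1947 gene regions with 3 to 7 positions had a median level of 34.3%, and the 3 non-clustered members of that size (Cdh7, Pcdh8 and Pcdh10) lay between 14.9% and 27.3%. With 4 regions in 1 array, the comparison is a description and was given no test.

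**Figure D2:**
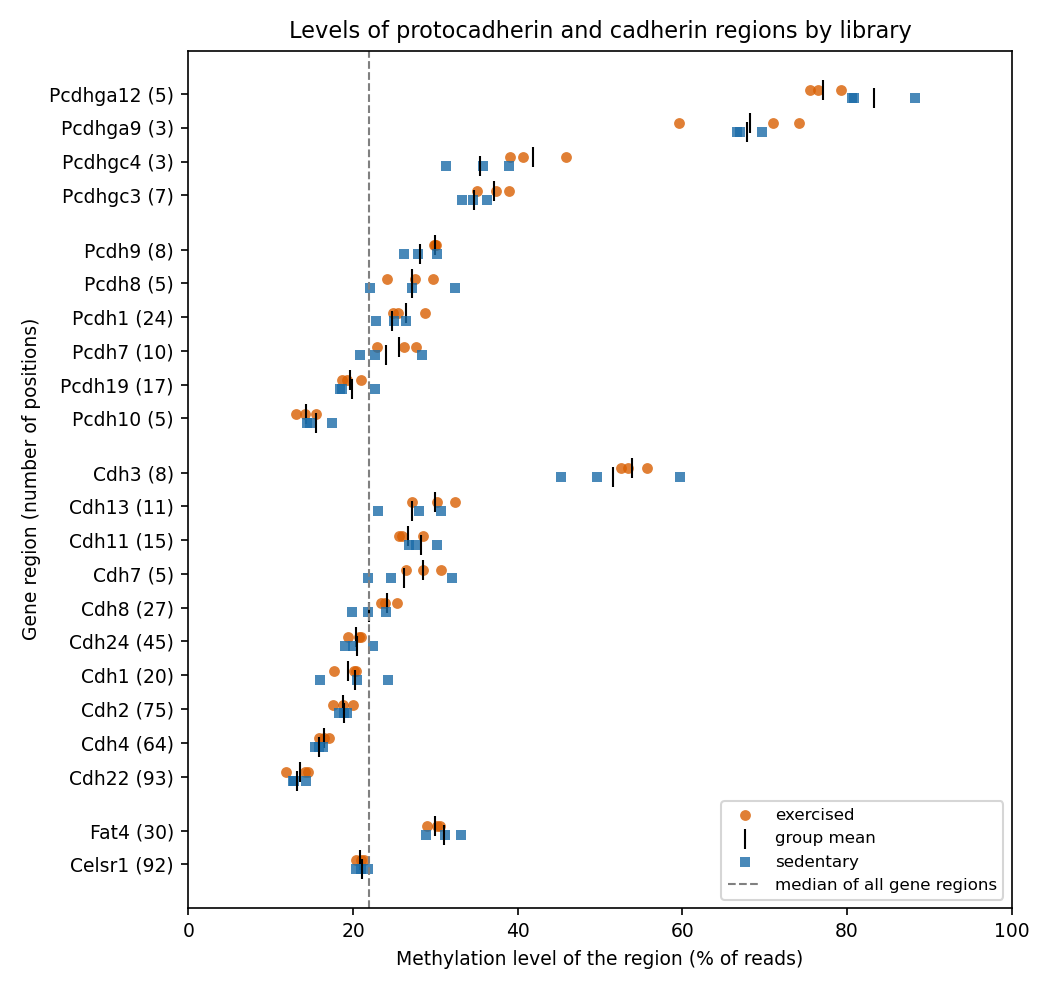
Methylation level (% of reads, x axis) of each region (y axis, with its number of positions) in the 3 exercised libraries (circles) and 3 sedentary libraries (squares), with group means as bars and the median of all gene regions (22.0%) as a dashed line. The highest mean levels are those of Pcdhga12 (80.2%), Pcdhga9 (68.0%) and Cdh3 (52.7%), and group values overlap for all regions except Pcdhga12 and Pcdhgc4.

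The gamma regions were of 2 kinds, and their measured positions lay in different places. The region starts rise in the order A9, A12, C3, C4, the textbook 5′ to 3′ order of the array, so transcription was taken to run toward higher coordinates, with the start at base 2001 of each region. On that reading the 5 Pcdhga12 positions (region chr18:37923234-37926233, mm9) lay 1973 to 1946 bp before the start, and the 3 Pcdhga9 positions (chr18:37894590-37897589) lay 956 to 992 bp after it. Neither A-type region held a position under 10%: mean levels over the 6 libraries were 99.7%, 88.0%, 59.3%, 80.5% and 72.2% along Pcdhga12, and 67.0%, 37.5% and 100% along Pcdhga9. Of all gene regions 5.12% held no position under 10%, and of those with 3 to 7 positions 22.0%.

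The C-type regions were measured closer to the start. The 7 Pcdhgc3 positions (chr18:37964064-37967063) lay 111 to 586 bp after it and the 3 Pcdhgc4 positions (chr18:37972733-37975732) 82 to 115 bp after it. Pcdhgc3 encodes a gamma isoform found also outside the nervous system, and Pcdhgc4 one studied for neuronal survival. Along Pcdhgc3 the mean levels ran 14.9%, 5.11% and 98.6%, then 23.8%, 4.65%, 5.67% and 98.9%, and along Pcdhgc4 15.8%, 3.21% and 96.5%. Both regions thus held positions under 10% next to positions above 95%. Without the high positions beside low ones, Pcdhgc3 stood at 5.27% over its 3 remaining positions, Pcdhga12 and Pcdhga9 kept all their positions, and Pcdhgc4 had too few left. The A-type and C-type positions were thus measured at different distances from the start, and promoter type and distance cannot be told apart here.

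**Figure D3:**
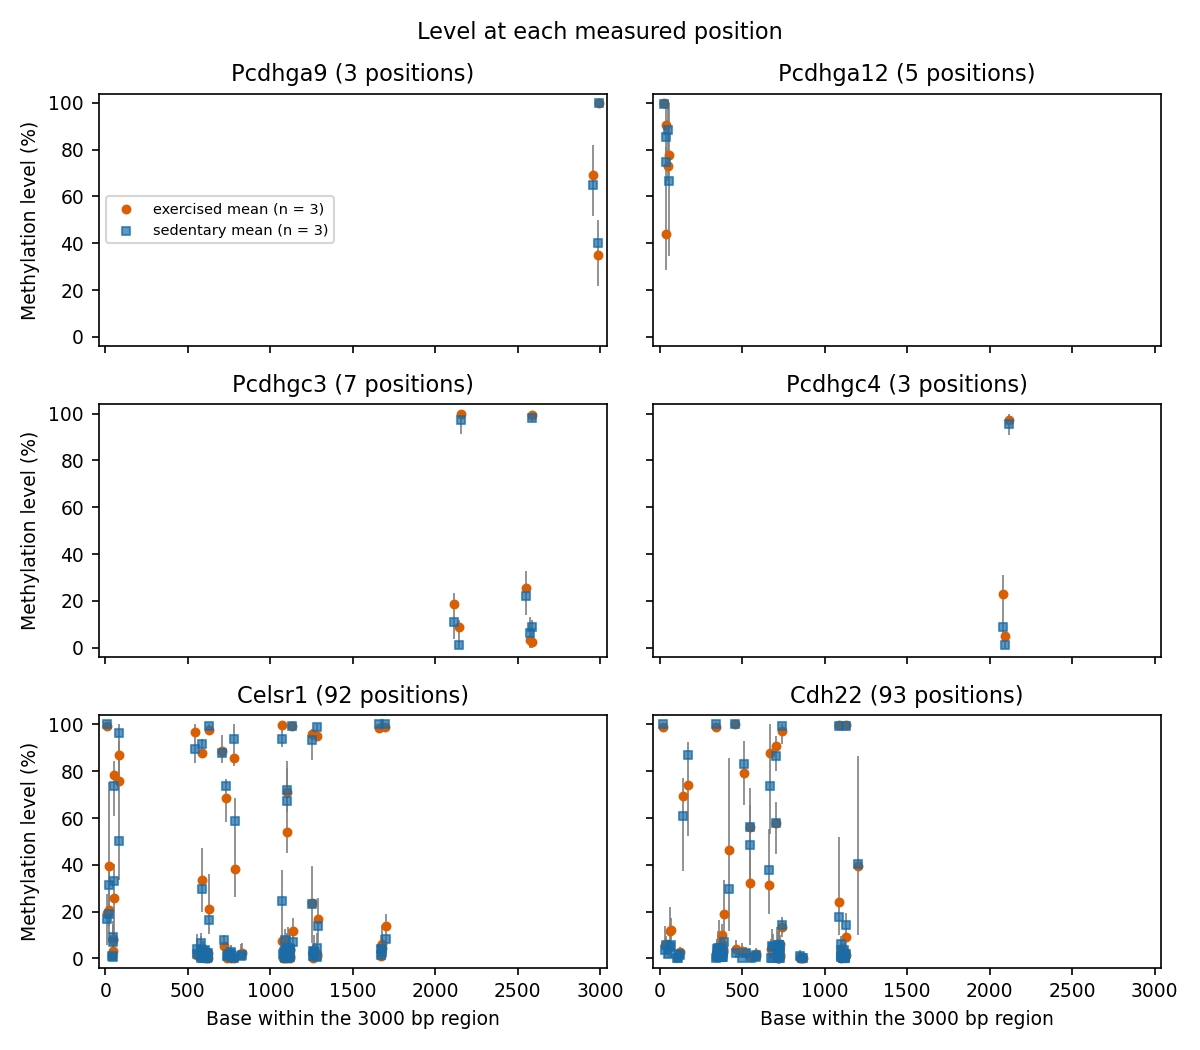
Methylation level (%, y axis) at each measured position of 6 regions, by base within the 3000 bp region (x axis), as the mean of the 3 exercised (circles) and the 3 sedentary libraries (squares), with grey lines from the lowest to the highest of the 6 libraries. Pcdhga9 and Pcdhga12 show no position under 10%, whereas Pcdhgc3, Pcdhgc4, Celsr1 and Cdh22 combine positions near 0% with single positions near 100%.

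Among the non-clustered genes, 17 of 18 regions lay between 13% and 31%. The 18th, Cdh3 (P-cadherin, a classical cadherin of epithelia, chr8:109032791-109035790), stood at 55.7%, 53.4% and 52.6% in exercised and 45.3%, 49.6% and 59.7% in sedentary libraries over 8 positions. Cdh3 was thus the only non-clustered member above 31%, and its sedentary libraries enclosed the exercised ones. Cdh22 (chr2:165059238-165062237) had the most positions, 93, and the lowest level, 14.1%, 14.5% and 11.8% against 12.6%, 12.8% and 14.3%. Of its positions 72 were under 10% and 21 stood beside a low one. Celsr1 (chr15:85863208-85866207), a seven-pass transmembrane cadherin of planar polarity, stood at 21.0%, 21.3% and 20.3% against 20.3%, 21.8% and 21.0% over 92 positions, of which 63 were under 10%. Without the high positions beside low ones, 16 of the 18 non-clustered regions had a level under 10%, Celsr1 at 2.31% and Cdh22 at 1.89% among them, while Cdh3 stood at 38.5% over 4 positions and Fat4 at 10.8% over 20. That step removes high values by its definition, so the low levels left behind are no result by themselves.

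No member region passed the test between exercised and sedentary libraries. In edgeR's quasi-likelihood test, fitted over all gene regions, 0 of 22 members passed an adjusted p of 0.05 (0% of the 10021 regions did), each member having an adjusted p of 1.0. An unadjusted p under 0.05 was reached by 0 of 22 members, where 2.37% of all regions reached it (1.46% higher and 0.908% lower in exercised libraries), and limma on M values, the log2 ratio of methylated to unmethylated reads, gave 0 adjusted and 1 unadjusted member (Pcdhga12), where 2.82% of all regions had an unadjusted p under 0.05 in limma. The difference between group means, exercised minus sedentary, was above 0 in 12 members and below 0 in 10, and its median was 0.365 percentage points. Over all regions it was above 0 in 6117 and below 0 in 3904, and the median was 0.390 points. That median too moved with single libraries, to -0.00956 without exercised library 1 and 0.881 without exercised library 3, and without the latter 5.998% of all regions and 0 members had an unadjusted p under 0.05. Groups did not overlap in 2 of 22 members, 1 higher (4.91% of all regions) and 1 lower (2.35%), against 7.25% of all regions in either direction. The clustered regions had a median difference of 1.43 points, which was -0.509 without exercised library 1 and 4.10 without exercised library 2, and the non-clustered regions one of 0.104 points, which was -0.187 without exercised library 2 and 0.709 without exercised library 3. Neither median kept its sign when single libraries were left out.

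Both members with non-overlapping groups were gamma protocadherins, and they lay in opposite directions. Pcdhga12 was methylated at 79.3%, 76.5% and 75.4% in exercised libraries 1 to 3 and at 80.6%, 88.2% and 80.8% in sedentary libraries 1 to 3. All exercised libraries lay below all sedentary ones, by 1.30 points at the nearest. The means were 77.1% ± 1.99 and 83.2% ± 4.31 (SD, n = 3), a difference of -6.12 points (edgeR p = 0.0540, adjusted p = 1.0; exact permutation p = 0.1, the smallest that 3 against 3 allows). Without sedentary library 2 the difference was -3.63 points. Pcdhgc4 stood at 40.6%, 39.1% and 45.8% in exercised and 35.8%, 31.3% and 39.0% in sedentary libraries, so that the lowest exercised value was 0.101 points above the highest sedentary one. The means were 41.8% ± 3.55 and 35.4% ± 3.85, a difference of 6.46 points (edgeR p = 0.190, adjusted p = 1.0; exact permutation p = 0.1). The middle 90% of all regions with 3 to 7 positions, the size of the gamma regions, spanned -5.95 to 5.73 points.

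The other gamma regions overlapped between groups. Pcdhgc3 stood at 39.0%, 35.0% and 37.3% in exercised and 33.2%, 34.6% and 36.3% in sedentary libraries, a difference of 2.39 points that was 1.45 without exercised library 1 and -0.696 without the high positions beside low ones. Pcdhga9 stood at 74.1%, 59.6% and 71.0% against 66.7%, 69.6% and 67.0%, a difference of 0.467 points, with exercised library 2 alone below all sedentary libraries. In Pcdhgc4 the position 82 bp after the start was at 17.4%, 20.3% and 31.3% in exercised and 7.50%, 3.03% and 15.4% in sedentary libraries. All 3 Pcdhgc4 positions had a higher group mean in exercised libraries, by 14.3, 3.76 and 1.71 points, so most of the difference lay at 1 position. At the last one (base 2116) the groups overlapped, at 100%, 92.2% and 100% against 100%, 90.9% and 96.2%. Within Pcdhga12 the positions disagreed: by group mean 3 of 5 were higher and 2 lower in exercised libraries. The position furthest apart was base 41 (chr18:37923274), chosen here after its values were seen, at 28.6%, 52.1% and 51.1% in exercised and 64.2%, 78.6% and 81.1% in sedentary libraries. There the means were 43.9% ± 13.3 and 74.6% ± 9.15, a difference of -30.7 points (edgeR p = 0.0881, adjusted p = 0.919; exact permutation p = 0.1). All exercised libraries lay below all sedentary ones, and it was the only member position in a strong class of the authors' deposited table, where its unadjusted p is 0.0301, against 0.0881 in edgeR's test over all positions.

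Among non-clustered protocadherins the difference ran from -1.30 points in Pcdh10 to 1.82 in Pcdh9. Pcdh9 (chr14:94288889-94291888) stood at 30.0%, 30.1% and 29.8% against 27.9%, 30.2% and 26.2%, and Pcdh1 (chr18:38368417-38371416), a protocadherin known from airway epithelium, at 28.7%, 25.5% and 24.9% against 26.4%, 24.9% and 22.7%. In both, sedentary library 3 had the lowest value and the groups overlapped. The difference in Pcdh9 was 0.876 without sedentary library 3 and 2.87 without sedentary library 2, and that of 1.68 in Pcdh1 was 0.507 without exercised library 1 and 0.708 without sedentary library 3. Pcdh10 (chr3:45180320-45183319), a neuronal protocadherin often found methylated in tumours, had 15.4%, 14.2% and 13.1% against 14.4%, 14.8% and 17.4%, a difference of -1.30 points that was -0.359 without sedentary library 3 and -0.719 without exercised library 3. Pcdh7, Pcdh8 and Pcdh19 differed by 1.60, -0.0540 and -0.303 points.

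Among Cdh genes the difference ran from -1.54 points in Cdh11 to 2.68 in Cdh13. Cdh11 (chr8:105308012-105311011), a mesenchymal type II cadherin, stood at 26.0%, 25.6% and 28.5% against 26.8%, 27.6% and 30.2%, and its difference was -0.560 without sedentary library 3 and -2.45 without exercised library 3. Cdh13 (chr8:120805655-120808654), the GPI-anchored T-cadherin that binds adiponectin in muscle and vessels, stood at 27.1%, 30.2% and 32.3% against 30.6%, 27.9% and 23.1%, and its difference was 0.602 without sedentary library 3 and -0.605 without the high positions beside low ones. Cdh8 (chr8:101939358-101942357), a neuronal type II cadherin, had the smallest p of the non-clustered members, at 23.8%, 23.4% and 25.3% against 19.9%, 24.0% and 21.8%, a difference of 2.26 points (edgeR p = 0.155, adjusted p = 1.0; exact permutation p = 0.3) that was 1.26 without sedentary library 1. Cdh2 (chr18:16966559-16969558), the N-cadherin of muscle and nerve, was at 18.7%, 20.02% and 17.6% against 18.9%, 18.3% and 19.3% over 75 positions, a difference of -0.0840 points. Groups overlapped in all 10 Cdh genes, and no region of Cdh5 (VE-cadherin) or Cdh15 (M-cadherin of muscle cells) was among those analysed here. Celsr1 differed by -0.173 points and Fat4 (chr3:38783862-38786861), a giant cadherin that binds Dachsous proteins, by -1.08, at 30.2%, 29.0% and 30.6% against 28.8%, 33.1% and 31.2%. The difference in Fat4 was -0.0559 without sedentary library 2 and -2.20 without sedentary library 1. Sedentary library 3, the shallowest, was the highest or the lowest library in 11 of 22 members and sedentary library 2, the deepest, in 10, while exercised library 1 was so in 3. The part of depth in this was not tested.

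**Figure D4:**
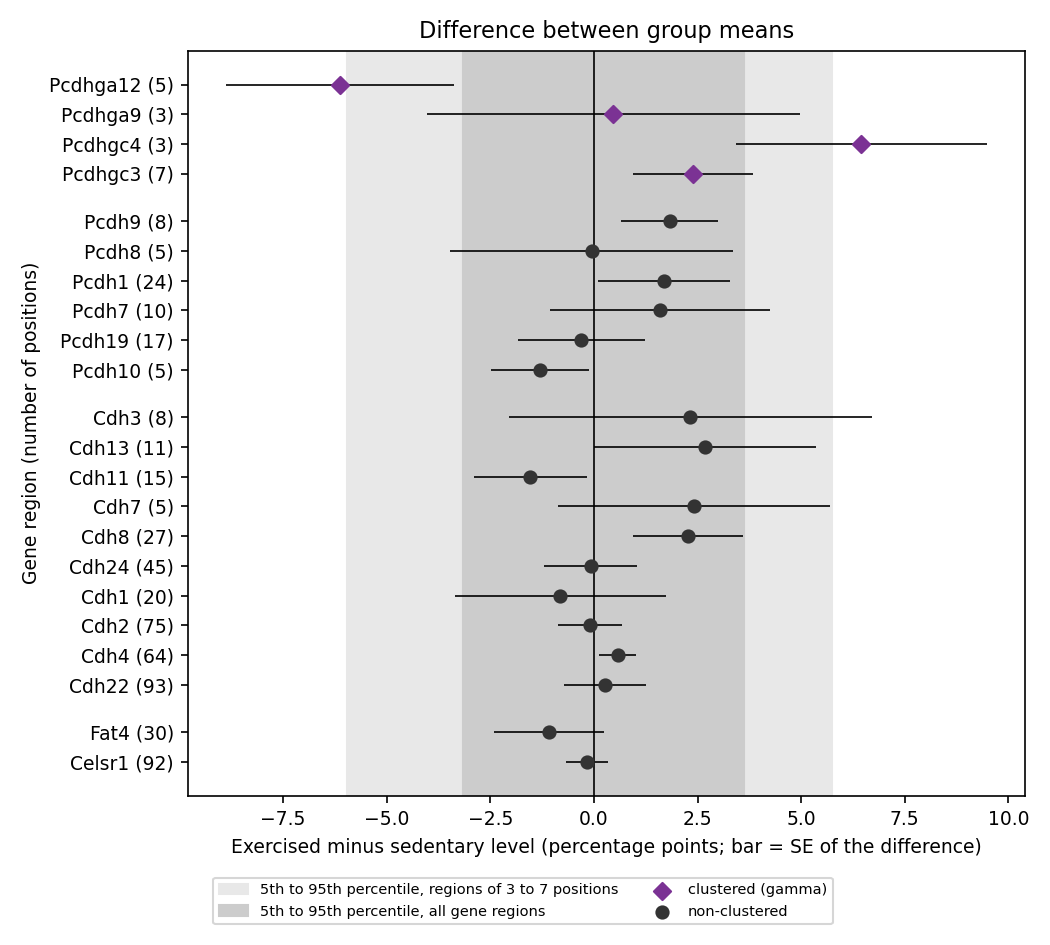
Difference of group means, exercised minus sedentary, in percentage points (x axis), for each region (y axis, with its number of positions); diamonds are gamma protocadherins, circles the non-clustered members, and bars the standard error of the difference (n = 3 and 3). Shading spans the 5th to 95th percentile of all gene regions (-3.16 to 3.61 points) and of those with 3 to 7 positions (-5.95 to 5.73); Pcdhga12 at -6.12 and Pcdhgc4 at 6.46 lie outside both.

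Single positions gave no call either. Of 546 member positions that could be tested, 0 passed an adjusted p of 0.05 in edgeR (0% of 253960 positions), with a smallest adjusted p of 0.919. An unadjusted p under 0.05 was found at 11 positions that were higher in exercised libraries (1.9% of all positions) and at 9 that were lower (1.41%), or 2.01% and 1.65% of the member positions. In refits without exercised library 1, 2 or 3, 10, 9 and 7 member positions had such a p. Without sedentary library 1, 2 or 3 the counts were 15, 16 and 17. Each refit was counted anew, so its positions need not be among the 20 of the main fit. The share of all positions in these refits is not given here. By the p-values of the authors' deposited table, 20 of 546 member positions (3.66%) had an unadjusted p under 0.05, 12 with a difference above 0 and 8 below, and 3.13% of all positions did. The smallest p in edgeR was at a Cdh2 position (chr18:16967801) with levels of 6.82%, 0.671% and 3.65% in exercised and 0% in all sedentary libraries, at a coverage of 88 to 214 reads (edgeR p = 0.00185, adjusted p = 0.919; exact permutation p = 0.1). A Pcdh1 position (chr18:38369623) stood at 20.8%, 5% and 21.1% against 0% in the 3 sedentary libraries, where 42, 31 and 14 reads covered it. A Pcdh19 position (chrX:130222867) was at 43.8% in exercised library 1 and at 0% and 2.38% in the other exercised libraries, so its difference of 15.4 points rests on 1 library. Of the lower positions, Cdh4 (R-cadherin, chr2:179177665) stood at 100%, 93.8% and 90.2% against 100% in each sedentary library, Cdh24 (chr14:55260339) at 0% in all exercised libraries against 11.8%, 0% and 11.1%, and a second Cdh2 position (chr18:16967803) at 0% against 0%, 3.85% and 0.971%. Of these 6 positions, only the one in Cdh4 was a high position beside a low one.

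Genes that act with cadherins were also without a call: 0 regions passed in 5 lists of 45 regions. In 4 of the 45 regions, Ctnna2, Tjp1, Dvl1 and Stag1, all exercised libraries lay above all sedentary ones, and in 0 all lay below (4.91% and 2.35% of all regions). Among catenins and plakophilins, which tie cadherins to the cytoskeleton, 7 of 10 regions were higher in exercised libraries (median 0.718 points), and Ctnna2, the neuronal alpha-catenin, stood at 19.2% ± 0.49 against 17.4% ± 0.58 (SD, n = 3). The nectins and junction scaffolds had 4 higher and 4 lower (median 0.136), with Tjp1, a tight junction scaffold, at 20.4% ± 1.44 against 17.9% ± 0.83. The desmosomal cadherins and cadherin relatives had 3 higher and 4 lower (median -0.0863). Of 10 planar cell polarity partners 8 were higher (median 0.623), and Dvl1, a Dishevelled protein, stood at 13.2% ± 1.19 against 11.3% ± 0.41 (edgeR p = 0.0403, adjusted p = 1.0; exact permutation p = 0.1). Of 10 regulators of the clustered protocadherins 8 were higher (median 0.619). Beside these list counts, 6117 of all 10021 gene regions were higher, with a median of 0.390 points. Stag1, a cohesin subunit, stood at 30.4% ± 1.32 against 25.9% ± 3.71, Ctcf at 9.02% ± 0.40 against 8.62% ± 0.80, and Smchd1, a chromatin protein that silences protocadherin promoters, at 23.8% ± 1.24 against 25.1% ± 4.49. Dvl1 was the only one of the 45 with an unadjusted p under 0.05, where 2.37% of all regions had one. Of the cell type markers, 10 regions were measured (2 of muscle, 4 endothelial, 2 of leukocytes and 2 of nerve), and 0 passed.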

How the data were processed

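The submitters' processing notes name the build mm9, Bowtie 0.12.9, Bismark 0.7.7, cutadapt 1.0 and Trim Galore 0.2.5, without roles or settings. For each of 268725 positions in 10755 regions the authors deposited the methylated fraction (0 to 1) and the count of covering reads, at least 10 in every library, plus a difference and an unadjusted p-value. The product of fraction and count was whole within 0.00236 of a read and gave methylated read counts. Symbols for 10652 transcripts came from a RefSeq table (GRCm38.p6), used for names. Members and lists were chosen with earlier results of these data known.

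Counts summed per region were tested with edgeR 4.0.16 (R 4.3.3; quasi-likelihood, sample terms plus a group term for the methylated counts, no dispersion trend), and positions likewise, adjusted by Benjamini-Hochberg over the whole table. limma 3.58.1 used log2((methylated + 2)/(unmethylated + 2)). The edgeR test on regions was also tried on simulated data, and the outcome is not given here. Exact permutation tests used all splits of 3 against 3. Named regions were, per subgroup, those with most positions and with the highest and lowest level (at least 5 positions), the 3 smallest p per direction, and Cdh2, Cdh5, Cdh13 and Cdh15 where measured. Cdh24, Pcdh19 and Pcdhga9, and the adjoining genes named, were chosen after their values were seen, as were Pcdh7, Pcdh8, Cdh7 and Cdh4.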

Additional observations from a re-analysis of the deposited data

How the results depend on the processing

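No alternative gave a member region or position an adjusted p under 0.05. The count of member regions with an unadjusted p under 0.05 was 0 (2.37% of all regions), and 1 with limma on M values (2.82%). Leaving out 1 library gave 0 to 1: Pcdhga12 without exercised 1 or sedentary 1, and Cdh3 without sedentary 3. Of all regions, 1.69%, 2.75% and 2.32% had such a p without exercised 1, sedentary 1 and sedentary 3. The sources used here do not say whether equal replicate numbers mark paired libraries. Correlations of deviations from the group means were 0.0190, -0.219 and -0.111 at equal numbers and -0.101 to 0.221 at unequal ones. These values cannot settle pairing, since the 3 deviations of a group sum to 0. With the replicate block 0 members were called and 0 had an unadjusted p under 0.05, where 2.04% of all regions had one. Member positions with an unadjusted p under 0.05 numbered 20, against 4 with the block and 27 with limma. They numbered 13 of 361 tested at a coverage of 20, 10 of 410 without stand-alone positions, and 7 to 17 with 1 library left out. The share of all positions under these settings is not given here. The clustered median level of 53.3% was 68.0% at positions covered at least 20 times, without stand-alone positions (at least 10%, with a median of neighbours within 100 bp under 10%) and without high positions beside low ones (an alternative chosen after seeing the data), each on 3 regions. It was 58.0% with at least 5 positions, on 2 regions (Pcdhga12 and Pcdhgc3). As a median over 18 single unique positions, a different measure, it was 63.1%. The non-clustered median of 23.9% was 20.4% at a coverage of 20, 3.59% without stand-alone positions, 2.47% without high positions beside low ones, 24.6% with unweighted positions and 2.67% as a median over single unique positions. Leaving out 1 library gave median levels of 52.3% to 54.1% and 23.4% to 24.4%, and median differences of -0.509 to 4.10 and -0.187 to 0.709 points. The clustered median difference of 1.43 was -1.87 with at least 5 positions and -0.696 without high positions beside low ones, and the non-clustered one of 0.104 was -0.0745 in the latter and -0.0664 without positions of very high coverage. Pcdhgc4 had too few positions under 4 of these settings, and Pcdhga9 under the minimum of 5 positions. The replicate block, limma, merged strands and the minimum of 5 positions leave a region's difference as it was. Of 121 other values of the 14 named regions, many therefore could not change direction, and 114 kept their direction. The cause was not tested for those that changed it: Cdh11 at 0.787 and Cdh2 at 0.602 points unweighted, Cdh2 at 0.538 without either kind of high position, Cdh13 at -0.605 and Pcdhgc3 at -0.696 without high positions beside low ones, and Celsr1 at 0.133 at a coverage of 20. Leaving out 1 library gave Cdh2 -0.710 to 0.523, Cdh22 -0.255 to 1.10, Cdh3 -0.810 to 6.42 and Celsr1 -0.530 to 0.195 points, and the other 10 kept their direction, though not their size. Sedentary library 3 had a median of 28.5 reads at member positions; what this depth limits was not measured.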
